A study of Mus musculus with 27 samples.

Results

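Intergenic single-exon NONCODE transcripts made up 3401 of the 57683 features counted in these hearts. NONCODE is a catalogue of noncoding RNAs whose entries carry n-numbers, and the series' annotation, on the mouse build mm9, holds 36991 of them. The 3401 were chosen by position alone: long noncoding biotype, more than 5 kb from the span of every protein-coding gene, and exons that merge into 1 block. No measured value entered the choice. The word intergenic holds here only against coding genes, since 667 of the 3401 share exon bases with another annotated feature, and 112 lie within 5 kb of a feature that is neither coding nor NONCODE, among them the known noncoding RNAs Airn, Meg3 and H19. The word single-exon holds for the merged block: 2069 are listed with 1 exon line and 1332 with several that touch or overlap and merge.

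Long noncoding RNAs are transcripts that are not translated into protein, and many carry a poly(A) tail like messenger RNA. Some act in the nucleus on nearby genes. Airn, for example, is made from the paternal chromosome and silences the paternal copy of Igf2r, and Meg3 and H19 are made from the maternal chromosome of other imprinted loci, where only the copy from a given parent is active. Others, such as the abundant nuclear RNA Malat1, have no intron. A catalogue entry of 1 exon can also be a piece of a longer RNA, such as an unannotated end of a neighbouring gene or the body of a long unspliced transcript.

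All hearts came from C57BL/6J mice, an inbred strain, and each library was 1 heart with no genetic change in any group. The groups were 7 whole hearts of the embryonic stage E13.5, and the ventricular apex of 6 unoperated adults of 6 weeks, of 6 unoperated adults of 16 weeks, of 4 sham-operated adults of 12 weeks, and of 4 adults of 12 weeks after 4 weeks of transverse aortic constriction (TAC, a band around the aortic arch that overloads the left ventricle). The adults are labelled male except 1 female TAC heart, and the embryos' sex is given as unknown. RNA was captured on oligo(dT) and sequenced without strand, so strand relations below are those of the annotation, and reads of overlapping or antisense features cannot be told apart.

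Total counts ran from 7543375 to 12646039 in E13.5 libraries and from 7958592 to 11846819 in sham and TAC libraries, but only from 2092270 to 2682955 in the unoperated adults, whose labels also give another base quality encoding. Depth, encoding, operation and age therefore cannot be told apart between sham and unoperated hearts. In 8 adult libraries, counts of Y-linked genes did not match the labelled sex. They were replicates 1 and 6 at 6 and at 16 weeks, sham replicates 2 and 3, TAC replicate 3 and the female TAC heart. Results were also computed with these 8 left out. Such fits rest on sham replicates 1 and 4, TAC replicates 1 and 2, and replicates 2 to 5 at each unoperated age. The tissue itself also differed: E13.5 libraries had a summed level of 12480 to 48140 CPM (counts scaled to a common library total) of 7 erythroid markers against 154 to 279 in sham, 539 to 657 of 3 measured proliferation markers against 11.4 to 17.2, and 22477 to 29606 of 8 cardiomyocyte markers against 151120 to 180090. Atrial markers (5 listed) summed to 2484 to 3301 CPM in these whole embryonic hearts against 210 to 245 in sham apexes, fibroblast markers to 2816 to 5133 against 1127 to 1293, and macrophage markers to 93.1 to 141 against 316 to 344. In TAC libraries the 7 fibroblast markers summed to 2426 to 4932 CPM against 1127 to 1293 in sham. The 6 measured macrophage markers summed to 448 to 608 against 316 to 344, and the 5 atrial markers to 2466 to 3887 against 210 to 245. The atrial list holds Myl7, Myl4, Nppa, Bmp10 and Sln, and its sum is not split by gene here. Only 2 of the 5 were tested in TAC against sham, both called higher. Sln, an atrial regulator of the calcium pump, held no count in any group. The 8 cardiomyocyte markers summed to 133240 to 158840 CPM in TAC against 151120 to 180090 in sham, with 2 called higher and 3 lower. In bulk tissue, fewer cells of a type and less RNA per cell cannot be told apart. The part of these markers in the results below was not tested.

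Promoters of 3 known RNAs that the results turn on show how differently such transcripts begin. No sequence of the transcripts themselves is printed, since no mm9 genome was used here. The promoters come from RefSeq on the build GRCm38.p6 and run from 250 bases before to 50 bases after the annotated start, on the strand of the gene. Capitals mark the motifs TATAAA (the TATA box), CCAAT (the CCAAT box) and GGGCGG (the GC box), each searched on both strands, so that a match may read as its reverse complement; matches may overlap.
Airn (chr17:12741061-12741360, plus strand): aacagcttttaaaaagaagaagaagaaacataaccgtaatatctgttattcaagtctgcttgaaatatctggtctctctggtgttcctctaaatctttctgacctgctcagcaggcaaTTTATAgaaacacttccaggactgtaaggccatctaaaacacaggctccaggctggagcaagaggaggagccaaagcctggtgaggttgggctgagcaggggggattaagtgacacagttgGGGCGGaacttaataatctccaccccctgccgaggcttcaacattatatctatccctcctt
Meg3 (chr12:109540746-109541045, plus strand): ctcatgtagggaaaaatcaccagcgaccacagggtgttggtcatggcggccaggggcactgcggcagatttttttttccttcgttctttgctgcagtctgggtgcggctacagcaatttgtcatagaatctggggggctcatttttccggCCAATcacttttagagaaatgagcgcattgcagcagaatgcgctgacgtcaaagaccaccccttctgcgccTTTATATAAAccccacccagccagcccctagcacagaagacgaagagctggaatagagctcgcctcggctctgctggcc
Malat1 (chr19:5802623-5802922, minus strand): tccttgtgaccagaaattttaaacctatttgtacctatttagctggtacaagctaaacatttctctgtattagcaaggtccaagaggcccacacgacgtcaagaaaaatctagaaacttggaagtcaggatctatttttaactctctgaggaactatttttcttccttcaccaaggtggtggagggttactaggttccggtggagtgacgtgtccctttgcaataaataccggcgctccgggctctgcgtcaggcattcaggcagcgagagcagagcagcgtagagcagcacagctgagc

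Meg3 holds 2 overlapping TATAAA matches and 1 CCAAT match, Airn holds 1 TATAAA and 1 GGGCGG match, and Malat1 holds none of these letters in its window. Among 32851 RefSeq promoters of the same length, 13.6% hold TATAAA, 37.4% CCAAT and 35.7% GGGCGG. CpG dinucleotides number 13 in the Meg3 window, 10 in Malat1 and 3 in Airn, against a median of 7 over all promoters. A match is a description of the letters, not of a factor bound there.

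Of the 3401 transcripts, 2734 share no exon base with another feature. Their length has a median of 1787 bases (quartiles 1036 and 2641, range 32 to 14358), against 1229 for the 4474 intergenic NONCODE genes with several exon blocks. The nearest coding gene lies at a median of 42549 bases, with 528 transcripts within 10 kb and 1091 beyond 100 kb. Both strands are used alike, with 1709 on plus and 1692 on minus. Within 10 kb of the coding gene, however, 234 lie downstream on the same strand, 110 upstream on the same strand, 114 upstream on the opposite strand and 70 downstream on the opposite strand. Just inside the 5 kb rule were n277090 (5027 bases from Ptgs1), n273248 (5104 from Zfp871) and n278382 (5163 from BC089491), and just outside were n291249 (4926 from Ibtk), n279029 (4879 from Pinx1) and n285485 (4853 from Tshz2). Mean levels in sham hearts were 0.752, 12.5 and 9.61 CPM for the inner 3 and 2.98, 0.478 and 0.0563 CPM for the outer 3.

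Most of the class was at or near 0 in these hearts. Over all 27 libraries together, 1413 transcripts had no count and 1092 had 1 to 10, while 298 reached 100 or more. Of the 1413, 202 could not be counted at all, because every base of theirs is shared with another feature and reads there were given to neither. The share with any count was 58.5% against 45.1% for the multi-exon class. A pair of transcripts held nearly everything that was counted: n265358 alone had 81.7% of the class's counts, and with n177784 the share was 92.0%. Of the remainder, the next 10 transcripts held 24.7%.

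Without that pair, the summed level of the class was 1256 ± 17.5 CPM (SD, n = 7) at E13.5, 1213 ± 54.9 (n = 6) at 6 weeks, 1114 ± 77.4 (n = 6) at 16 weeks, 1153 ± 35.5 (n = 4) in sham and 1020 ± 17.0 (n = 4) in TAC hearts. TAC libraries ran from 1000 to 1039 CPM and sham libraries from 1110 to 1184, so these groups did not overlap, while E13.5 and 6-week libraries did. The E13.5 value depends on scaling: without TMM (trimmed mean) factors, which correct for the RNA taken up by a few abundant genes, the means were 1780 at E13.5, 982 in sham and 841 in TAC hearts. Scaled down to the smallest library of 2092270 counts, an expected 584 ± 26.9 transcripts had a count at E13.5, against 410 ± 17.3 and 395 ± 26.7 at 6 and 16 weeks, 413 ± 10.1 in sham and 344 ± 10.1 in TAC. Each E13.5 library (556 to 621) was above each adult library (329 to 437), and each TAC library (329 to 352) was below each sham library (403 to 427). These numbers, and the shares that follow, use library totals without TMM factors. Like the unscaled sums, they therefore take no account of the RNA taken up by a few abundant genes. All NONCODE features without that pair together took 3.54% of the counts at E13.5, 2.56% in sham and 1.96% in TAC hearts.

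**Figure D1:**
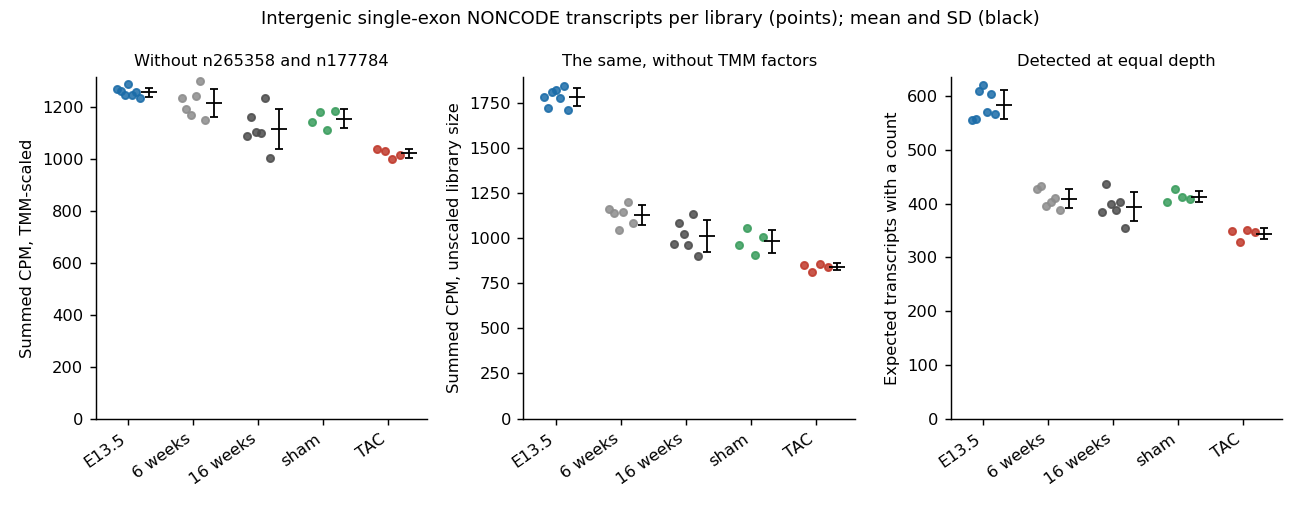
Each point is 1 library and the black marks are group mean and SD; the vertical axes give summed CPM of the class without n265358 and n177784 with TMM factors (left) and without them (middle), and the expected number of transcripts with a count at 2092270 counts (right). TAC libraries sit below sham libraries in all 3 panels, and E13.5 libraries sit above all adult ones in the middle and right panels only. The right panel, like the middle one, uses library totals without TMM factors.

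n265358 (chr11:108872993-108873432, minus strand, 440 bases, 60896 bases from Axin2) was the most abundant, at 43268 CPM per kb of exon averaged over the group means. The annotation lists it as 3 exon lines that merge into 1 block. Its level was 3784 at the lowest, 5357 at the median and 16331 at the highest of the E13.5 libraries, with 29134 ± 8809 CPM (SD, n = 6) at 6 weeks and 36335 ± 2981 (n = 6) at 16 weeks. Sham hearts had 10287, 12233, 9669 and 8111 CPM, and TAC hearts 13893, 9467, 13782 and 13832 CPM. All unoperated adults lay above all other libraries, and E13.5, sham and TAC overlapped, with E13.5 replicate 2 far above the other embryos. The log2 fold change of E13.5 against sham was -0.64 ± 0.37 (SE; adjusted p = 0.141 by edgeR's quasi-likelihood test with Benjamini-Hochberg adjustment over all features, used throughout), but -1.03 and past the threshold without E13.5 replicate 2. TAC against sham gave 0.30 ± 0.15 (adjusted p = 0.155), which passed the threshold without sham replicate 2 (0.40) or without TAC replicate 2 (0.42).

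n177784 (chr19:5795689-5802671, minus strand) was taken as Malat1: its 6983 bases equal the length of RefSeq's Malat1 gene, which lies on the same chromosome and strand. Malat1 stays in the nucleus, in speckles that store splicing factors. Only 39.1% of its bases are free of other features, so its counts come from that share. At E13.5 it ran from 512 to 781 CPM with a median of 564, at 6 weeks it averaged 1646 ± 208 and at 16 weeks 1671 ± 152 CPM. Sham hearts had 3220, 3720, 4207 and 3330 CPM and TAC hearts 1918, 1757, 2229 and 1898 CPM. No library of the embryo or TAC groups reached a sham library. It was lower at E13.5 than in sham by a log2 fold change of -2.71 ± 0.10 (adjusted p = 2.8e-15) and in TAC than in sham by -0.93 ± 0.09 (adjusted p = 4.52e-06). Its level at 16 weeks against 6 weeks differed by 0.01 ± 0.08 on the log2 scale (adjusted p = 0.977).

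Below this pair, levels dropped by more than an order of magnitude. Ranked by mean CPM over the groups, the next were n281278, n271105, n293821, n297454, n269737, n295130, n286216 and n290727. Per kb of exon, n297454 (28.4 CPM per kb), n295130 (23.0) and n296129 (21.2) followed Malat1 (271). Of these 3, n297454 and n295130 lie about as close to a coding gene as the rule allows, downstream on its strand: 5604 bases after Hipk2, a nuclear kinase, and 5496 bases after Tead1, a transcription factor of the Hippo pathway.

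The embryonic heart was set against the sham-operated adult heart, groups of like depth. After edgeR's filter on low counts 257 of the 3401 transcripts were tested, and the other 3144 were too low; a transcript can pass that filter through the group where it is high, so the counts below describe those tested. At E13.5, 107 of the 257 (41.6%) were higher and 65 (25.3%) lower, where the background over all 18677 features tested was 40.7% higher and 35.6% lower (76.3% called in either direction). The median log2 fold change was 0.31 over the 257, 0.12 over all features tested and -0.01 over coding genes. Upper-quartile scaling moves the median of all features by 0.17 upwards and gave 122 higher and 56 lower. Without sham replicates 2 and 3, the libraries of unmatched sex in this comparison, 120 were higher and 66 lower. Transcripts named for the size of their change in any comparison were picked without overlap between the groups compared. For them that lack of overlap is no separate result.

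**Figure D2:**
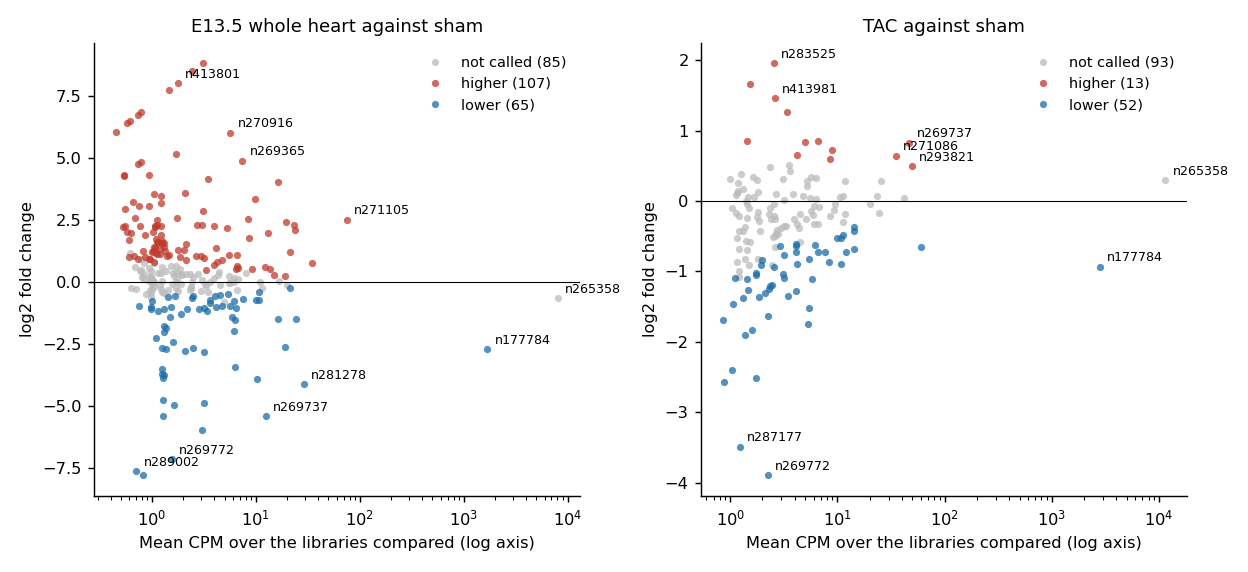
Each point is 1 tested transcript, with its mean CPM over the libraries compared on a log axis and its log2 fold change, for E13.5 against sham (left) and TAC against sham (right); red and blue mark adjusted p under 0.05. Fold changes beyond about 6 in size come from transcripts at or near 0 in a group and depend on the small count edgeR adds. Points spread to both sides at E13.5 (107 higher, 65 lower), while 52 of the 65 called in TAC lie below 0.

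The transcripts inside Airn rose together in the embryo. Airn is annotated at chr17:12934177-13052988 on the plus strand, and 10 members of the class lie in its span, all on its strand. The feature named Airn itself has no base of its own and no count, so these members carry its reads. Of the 10, 8 had counts, 2 had no base of their own, and 6 were tested: all 6 were higher at E13.5 than in sham, and 2 of the 6 were lower in TAC than in sham, where 40.7% of all features tested were higher at E13.5 and 18.4% lower in TAC. The most abundant, n271105 (chr17:12986783-12991920, 5138 bases), ran from 97.8 to 120 CPM at E13.5 with a median of 106, and had 16.5, 19.9, 17.6 and 16.3 CPM in sham and 9.58, 10.6, 11.5 and 13.2 CPM in TAC hearts. The 3 groups did not overlap: embryos were highest, sham hearts next and TAC hearts lowest. Its log2 fold change was 2.53 ± 0.08 for E13.5 against sham (adjusted p = 2.17e-16) and -0.69 ± 0.13 for TAC against sham (adjusted p = 0.000584).

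From the start of Airn onwards, the other 5 were n282476, n268217, n272617, n271031 and n288894. Their log2 fold changes for E13.5 against sham were 1.99 ± 0.15, 1.78 ± 0.15, 2.42 ± 0.13, 2.10 ± 0.12 and 2.30 ± 0.13 (SE), in that order. The groups overlapped in none of them. Against the unoperated adults the 6 members rose by 1.48 to 2.53. In TAC, n272617 had 2.90, 3.20, 3.65 and 3.36 CPM against 5.09, 4.94, 4.93 and 4.49 in sham, without overlap (log2 fold change -0.61 ± 0.18, adjusted p = 0.0138; not past the threshold with no filter, -0.55, or with a replicate block, -0.67). In TAC against sham, a replicate block also leaves out sham replicate 4 and the female TAC heart. The member farthest from the start, n288894, gave 0.03 ± 0.19 in TAC (adjusted p = 0.911). Neighbouring n268217 and n271105 overlap, and reads in their shared part were given to neither.

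Igf2r, the receptor that clears the growth factor Igf2 and the gene that Airn silences on the paternal chromosome, also rose at E13.5, by 2.48 ± 0.09 on the log2 scale against sham. Mas1, a receptor for angiotensin 1-7, is the coding gene toward the other end of Airn. Whether its span overlaps Airn was not examined, and reads of overlapping features cannot be told apart. Mas1 was lower at E13.5 by -0.97 ± 0.18 (adjusted p = 4.79e-05) and in TAC by -1.12 ± 0.22 (adjusted p = 0.000831). Igf2r in TAC gave 0.16 ± 0.07 (adjusted p = 0.0756).

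**Figure D3:**
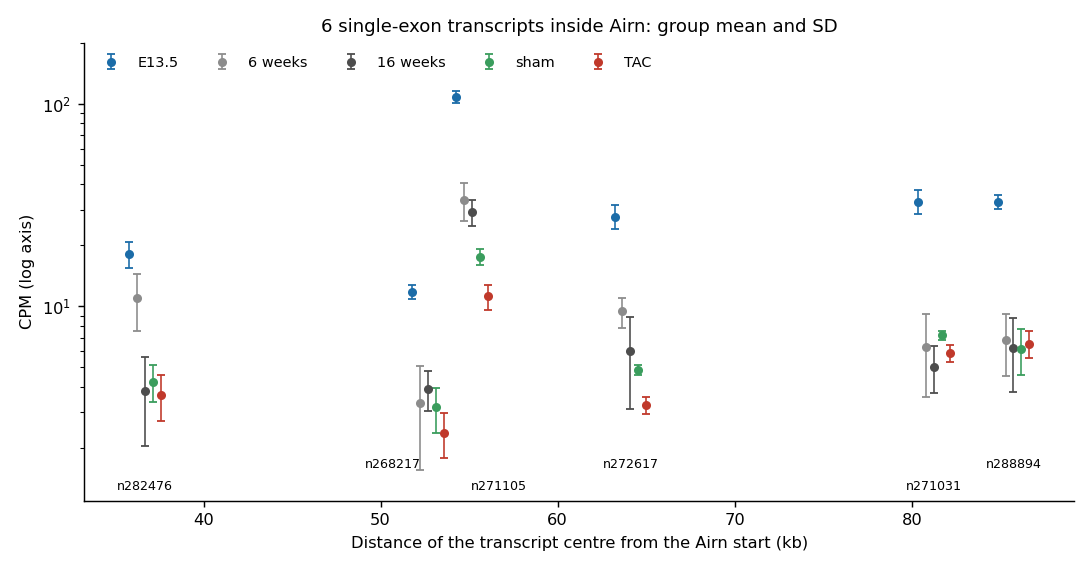
The horizontal axis is the distance of each transcript's centre from the annotated start of Airn in kb and the vertical axis the group mean CPM on a log axis with its SD; groups are shifted sideways for legibility. All 6 transcripts are highest at E13.5, n271105 at 108 CPM, and at n282476 the 6-week mean of 11.1 CPM stands above the 16-week mean of 3.85 CPM.

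Members also lie at other imprinted loci, which were described after the ranking was known and not counted as a list. On chromosome 12, the Meg3 span (chr12:110779211-110809936) holds 11 members, of which 10 have no base of their own. The remaining one, n269365 (chr12:110792096-110795554, 3459 bases), had 10.4 to 15 CPM at E13.5 with a median of 10.8. Sham hearts had 0.332, 0.574, 0 and 0.408 CPM and TAC hearts 0.446, 0.426, 0.107 and 0.348 CPM. Every embryo was above every adult, and sham and TAC overlapped. The log2 fold change against sham was 4.90 ± 0.28 (adjusted p = 2.73e-12).

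Farther along the same locus, n286071 (chr12:110871007-110874483) averaged 5.24 ± 1.23 CPM (SD, n = 7) at E13.5 and 0.272 ± 0.114 (n = 4) in sham, a log2 fold change of 4.16 ± 0.33 (adjusted p = 5.57e-10); it was named after its values were seen. n275679 (chr12:110986112-110987665) had 252 counts at E13.5 and 2 in sham, a ratio of CPM of 44.5 (95% interval 12.2 to 370, counting error only). The nearest coding gene to all 3 is Rtl1, a paternally expressed gene derived from a retrotransposon, whose log2 fold change was 3.67 ± 0.36 (adjusted p = 1.46e-08).

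The H19 member, n695 (chr7:149761436-149764051), has 9.29% of its bases to itself, the rest being shared with the feature H19, which held no count. It was seen only in embryos, at 1.93 to 3.09 CPM with a median of 2.15, and was at 0 in all adult libraries. Against a floor of 3 counts over the sham group it was at least 26.2-fold higher at E13.5. H19 is a maternally expressed RNA that is abundant in fetal tissues and shut down after birth.

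Near Gnas, an imprinted locus that encodes a G-protein subunit, n270916 (chr2:174091929-174092558, minus strand, 17263 bases upstream of Gnas on the opposite strand) had 5.86 to 11.1 CPM at E13.5 with a median of 9.10. Sham hearts had 0, 0.230, 0.154 and 0.102 CPM and TAC hearts 0.111, 0.107, 0 and 0.232 CPM. Every embryo was far above every adult. Its log2 fold change against sham was 6.03 ± 0.39 (adjusted p = 2.01e-11; 7.05 without the libraries of unmatched sex), and Gnas rose by 2.13 ± 0.38 (adjusted p = 0.000236).

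Outside imprinted loci, n275294 (chr12:106728427-106731305, 70077 bases upstream of Bdkrb2, a bradykinin receptor) had no count in sham and 3.01 to 9.02 CPM at E13.5 with a median of 4.49, at least 54.7-fold higher. TAC hearts had 0.557, 0.213, 0.322 and 0.812 CPM, 17 counts in all. Only 42.0% of the bases of n275294 are free of other features. n413801 (chr10:87429415-87430762, 29628 bases downstream of Igf1, the insulin-like growth factor) also had no count in sham and averaged 2.78 ± 0.339 CPM at E13.5, at least 31.3-fold higher, while Igf1 itself rose by 2.03 ± 0.23 (adjusted p = 5.51e-06). n293697 and n267174 were at least 14.1-fold and 12.7-fold higher by the same floor, with no count in any sham or TAC library. n280914, upstream of Cnot6, had 116 counts at E13.5 and 1 in sham, a ratio of 41.0 (95% interval 7.22 to 1634); without sham replicate 3, which held that count, its fitted log2 fold change moved from 4.86 to 6.90, and without the libraries of unmatched sex, sham replicate 3 among them, to 6.95. Cnot6, part of the deadenylase that shortens poly(A) tails, rose by 2.62 ± 0.18 (adjusted p = 3.28e-11).

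n4980 (chr8:3803095-3803689, minus strand) depended on the adult group it was set against. It had no count in sham and 12 counts in TAC, all of them in TAC replicate 2, but 7.14 to 18.9 CPM at 6 weeks and 10.6 to 17.7 at 16 weeks. At E13.5 it ran from 1.59 to 6.50 CPM. It was therefore at least 44.8-fold higher at E13.5 than in sham and lower than in unoperated adults by -1.76 ± 0.21 on the log2 scale (adjusted p = 1.09e-08). No other tested transcript was called in opposite directions against both adult sets. n419655 (chr2:40412523-40412802, 280 bases) showed the reverse gap between adults: it held no count in the 12 unoperated libraries and 66 counts over the 4 sham libraries, and was at least 109-fold higher at E13.5 than in unoperated adults but 2.55 ± 0.24 higher on the log2 scale than in sham. n4980 is 595 bases long, and for both transcripts the adult groups that disagree also differ in depth and quality encoding.

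Among transcripts lower in the embryo, n281278 (chr4:114285424-114287701, 291186 bases from Foxd2) was the most abundant after Malat1 by mean CPM, with 2.42 to 6.67 CPM at E13.5 and a median of 5.33. Sham hearts had 72.7, 81.7, 49.3 and 86.1 CPM and TAC hearts 42.9, 53.5, 47.7 and 47.1 CPM. Embryos lay far below all adults, and sham replicate 3 lay among the TAC hearts. The log2 fold change was -4.12 ± 0.26 against sham (adjusted p = 7.88e-08) and -0.65 ± 0.15 for TAC against sham (adjusted p = 0.00811).

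n269737 (chr6:51280492-51283702, 98967 bases upstream of Nfe2l3) moved in opposite directions in the embryo and under TAC. At E13.5 it ran from 0.407 to 1.43 CPM with a median of 0.758, sham hearts had 33.2, 36.5, 26.8 and 35.3 CPM, and TAC hearts had 76.1, 61.1, 49.0 and 56.1 CPM. The 3 groups did not overlap. The log2 fold change was -5.42 ± 0.17 for E13.5 (adjusted p = 1.47e-16) and 0.83 ± 0.13 for TAC against sham (adjusted p = 0.00034). Both comparisons use the same sham libraries. Nfe2l3, a transcription factor of the cap'n'collar family, rose by 3.56 ± 0.45 at E13.5 (adjusted p = 5.04e-07).

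Next to AB041803 on chromosome 6 a run of 4 members was at or near 0 in the embryo: n291041 (chr6:31058849-31060385), n267967, n266567 and n289002. n291041 had 0.168 to 0.488 CPM at E13.5 with a median of 0.325, against 9.95, 6.77, 7.71 and 8.47 CPM in sham and 1.89, 2.02, 3.22 and 2.90 CPM in TAC. Here too the order sham, TAC, E13.5 held without overlap. Its log2 fold change was -4.86 ± 0.23 at E13.5 and -1.75 ± 0.21 in TAC (adjusted p = 9.77e-14 and 1.27e-05). n267967 and n266567 gave -4.74 ± 0.30 and -4.97 ± 0.31 at E13.5, and n289002, with no count at E13.5, was at least 64.1-fold lower. In TAC, n266567 fell by 1.09 ± 0.21 and n289002 by 1.11 ± 0.32 on the log2 scale (adjusted p = 0.000844 and 0.0133), while n267967 gave -0.38 ± 0.25 (adjusted p = 0.241). The call of n289002 was lost with a replicate block (-0.85) and without sham replicate 4 (-0.91). The block also leaves out sham replicate 4, so these are not separate checks.

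A pair downstream of Osgep, an enzyme of transfer RNA modification, lies on its strand at 15911 and 10941 bases: n295571 (chr14:51508264-51510242) and n286508 (chr14:51513315-51515212). n295571 had at most 0.244 CPM at E13.5, 6.41, 10.4, 8.17 and 7.24 CPM in sham, and 2.23, 3.09, 2.14 and 4.06 CPM in TAC. No groups overlapped among these 3. It fell by 5.98 ± 0.30 at E13.5 and by 1.53 ± 0.22 in TAC in log2 units (adjusted p = 2.35e-13 and 9.39e-05), and n286508 by 5.42 ± 0.40 and 1.64 ± 0.30. Osgep fell by 1.15 ± 0.09 at E13.5 and gave 0.08 ± 0.10 in TAC (adjusted p = 0.566). n287177 and n269772, also among the lowest at E13.5, are described with TAC below.

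Transcripts and coding genes at short distance often changed in the same direction in this comparison. Of the 257 tested, 206 had a tested nearest coding gene (175 distinct genes), and in 115 pairs both were called: 83 in the same direction and 32 in opposite directions. Within 10 kb the split was 36 to 7, and the correlation of the log2 fold changes over 73 pairs was r = 0.57, against 0.33 over all 206. These are descriptions, since pairs share libraries and scaling and some share a coding gene. For the multi-exon class, 65 of the 108 pairs with both called went in the same direction. Within 10 kb the multi-exon split was 20 to 10, and r was 0.35 over 46 pairs. Within 10 kb and on the same strand, r was 0.60 over the 40 transcripts downstream and 0.80 over the 15 upstream, where all 15 had the sign of the coding gene. On the opposite strand it was 0.12 over 10 downstream and 0.77 over 8 upstream.

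**Figure D4:**
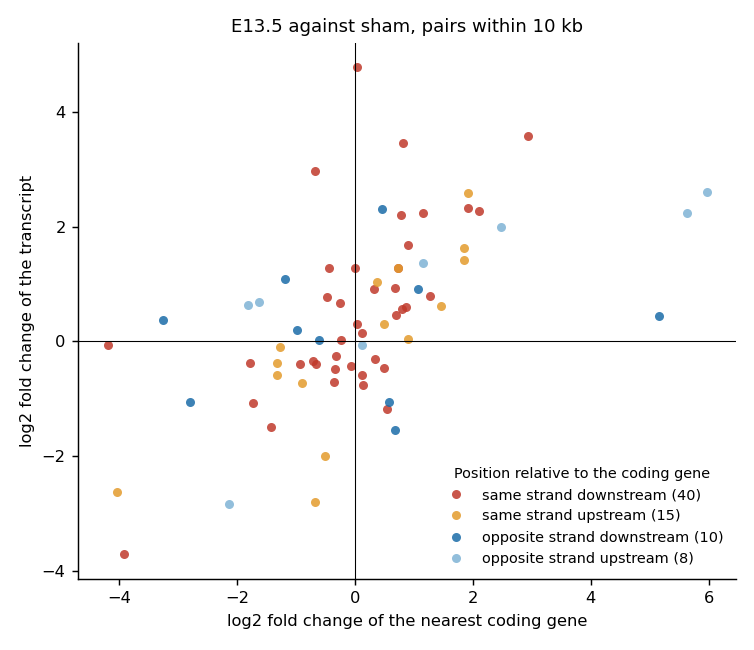
Each point is 1 of 73 pairs within 10 kb, with the log2 fold change of the nearest coding gene on the horizontal axis and of the transcript on the vertical axis, for E13.5 against sham; colours give the annotated position. The 15 transcripts upstream on the same strand lie at lower left and upper right, each with the sign of its coding gene, while 4 of the 10 downstream on the opposite strand have that sign.

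By distance, tested transcripts 5 to 10 kb from a coding gene had a median log2 fold change of 0.45 (36 higher and 22 lower of 86), those at 10 to 50 kb 0.37 (54 and 26 of 125), and those at 50 kb and more -0.15 (17 and 17 of 46). In the unoperated comparison the last bin also was the lowest, at -0.82 (3 higher and 12 lower of 18). Over all features tested, 40.7% were higher and 35.6% lower against sham, and 44.1% and 39.7% against unoperated adults. A trend with distance was not tested.

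Among the transcripts named for their level, some moved with the nearest coding gene and others did not. n293821 (chr9:121678395-121680852) lies 5961 bases upstream of Kbtbd5, a muscle protein of the kelch family, on its strand. Only 38.8% of the bases of n293821 are free of other features. It had 6.08 to 7.65 CPM at E13.5 with a median of 6.97, 43.5, 38.1, 38.7 and 40.2 CPM in sham, and 58.8, 64.7, 57.8 and 51.7 CPM in TAC. The 3 groups did not overlap. It fell by 2.62 ± 0.09 at E13.5 and rose by 0.50 ± 0.08 in TAC on the log2 scale (adjusted p = 3.54e-16 and 0.000251), and Kbtbd5 fell by 4.04 ± 0.21 and rose by 1.20 ± 0.11. n297454 fell by 1.5 ± 0.08 at E13.5 beside Hipk2 at -1.42 ± 0.06, with 0.04 ± 0.10 in TAC (adjusted p = 0.772). n295130, after Tead1, gave -0.25 ± 0.11 (adjusted p = 0.0388), a call lost under 5 other settings and 6 of the fits without a library. n286216, after the focal adhesion gene Lpp, rose by 0.78 ± 0.10 while Lpp fell by 0.48 ± 0.18. n290727, before the iron-sulphur cluster gene Nfu1, gave -0.10 ± 0.09 (adjusted p = 0.339) while Nfu1 fell by 1.28 ± 0.10. n296129 (chr19:3205606-3206258) rose by 1.21 ± 0.10.

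Beside Hand2, a transcription factor of the developing right ventricle that rose by 0.78 ± 0.08 at E13.5, a pair named after its values were seen behaved unlike each other. n270700 (chr8:59811231-59813895), 7917 bases downstream on its strand, averaged 7.51 ± 2.03 CPM (SD, n = 7) at E13.5 and 1.52 ± 0.254 (n = 4) in sham, a log2 fold change of 2.2 ± 0.24 (adjusted p = 7.94e-08). n288175 (chr8:59784801-59787501), upstream on the opposite strand, spread widely between embryos, from 7.99 to 33.4 CPM with a median of 15.6, and gave 0.02 ± 0.39 (adjusted p = 0.958). In TAC, n288175 was lower by -0.36 ± 0.12 (adjusted p = 0.0253), a call lost under 3 other settings and in 5 of the fits without a library, while Hand2 rose by 0.44 ± 0.09 (adjusted p = 0.00112).

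Set against the unoperated adults, whose libraries are shallower, 97 of the 3401 transcripts were tested. The embryo had higher levels of 36 and lower levels of 35. The background over 12766 features was 44.1% higher and 39.7% lower (83.8% in all). The embryo libraries are the same as in the comparison with sham, so both are given side by side. Medians were 0.03 over the 97 and 0.07 over all features on the log2 scale. After n419655, the largest rises were again near Gnas and in Meg3. n270916 had 3 counts in the unoperated adults and a ratio of CPM of 80.2 (95% interval 27.3 to 389); its fitted log2 fold change moved from 6.15 to 7.30 without 6 weeks replicate 5. n269365 rose by 4.99 ± 0.27 in log2 units (5.74 without the libraries of unmatched sex), n275294 by 4.86 ± 0.46, and n286071 by 3.49 ± 0.35 (4.11 without 6 weeks replicate 2).

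n270987 (chr5:67783388-67785597) had 21.3 to 27.4 CPM at E13.5 with a median of 24.1, and at most 2.91 CPM at 6 weeks and 2.32 at 16 weeks. It rose by 3.84 ± 0.15 (adjusted p = 2.34e-20), while its nearest coding gene Slc30a9, a zinc transporter, fell by 1.07 ± 0.07. Against sham the values were 4.05 ± 0.19 and -1.10 ± 0.09. The lower side was led by n295571 (-6.18 ± 0.26), n269737 (-5.19 ± 0.35), n269685 near Hspa9 (-4.59 ± 0.31), n415410 near Themis (-4.01 ± 0.19) and n291041 (-3.88 ± 0.35). n415410 had 10.1 to 16.2 CPM at 6 weeks and 11.6 to 21.4 at 16 weeks, against 0.379 to 1.26 at E13.5. Hspa9, the mitochondrial heat shock protein, fell by 0.84 ± 0.09.

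Pressure overload was then set against its surgical control. Of 158 transcripts tested, 13 were higher (8.23%) and 52 lower (32.9%) in TAC, where the background over 14555 features was 19.6% higher and 18.4% lower (38% in all). The median log2 fold change was -0.34 over the 158, 0.00047 over all features and 0.06 over coding genes. Lower calls also outnumbered higher ones in the other noncoding classes: 34 to 14 of 136 tested multi-exon intergenic genes (median -0.29) and 939 to 80 of 2600 other NONCODE features (median -0.45). Without the libraries of unmatched sex, 16 were higher and 50 lower. By distance the median was -0.26 at 5 to 10 kb, -0.33 at 10 to 50 kb and -0.73 at 50 kb and more. Transcripts named below for their change in TAC were picked without overlap between sham and TAC, so that is no separate result.

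The largest fall was that of n269772 (chr13:103129223-103129934, 353704 bases upstream of Cd180). Sham hearts had 5.31, 2.41, 5.09 and 4.08 CPM and TAC hearts 0.111, 0.107, 0.322 and 0.580 CPM. Every sham heart was above every TAC heart by several fold. The log2 fold change was -3.90 ± 0.42 (adjusted p = 5.57e-06), and -5.30 without the libraries of unmatched sex. Embryos held 2 counts in all, a ratio of sham to E13.5 of 201 (95% interval 54.6 to 1674); without E13.5 replicate 6 the fitted value against sham moved from -7.15 to -8.66. Unoperated adults averaged 2.07 ± 1.06 and 1.57 ± 0.721 CPM. Over the 27 libraries its log2 CPM was most like that of n286508 (Pearson r = 0.86), n291041 (0.83) and n293884 (0.83), which share its libraries and scaling. These r values span all 5 groups, so differences between groups enter them. Of the 3, n293884, 44964 bases upstream of Hes1, fell by 1.36 ± 0.30 in TAC (adjusted p = 0.00237). It was picked over libraries that include sham and TAC, so its fall is no separate result.

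n287177 (chr1:95908626-95911039, 6031 bases upstream of Neu4, a sialidase) had 2.32, 2.18, 2.62 and 1.94 CPM in sham and 0.334, 0.426, 0 and 0 CPM in TAC. The groups did not overlap. Unoperated adults were nearer to TAC than to sham hearts, at 0.198 ± 0.331 and 0.303 ± 0.538 CPM with 7 counts in 12 libraries. It fell by 3.49 ± 0.50 in TAC (adjusted p = 8.11e-05; -4.20 without TAC replicate 2 and -2.48 without the libraries of unmatched sex). It held no count at E13.5, at least 71.7-fold lower than in sham.

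Other large falls lay at 1 to 3 CPM in sham hearts. n286055 (chr3:149102050-149106296) went from 1.49 ± 0.481 to 0.250 ± 0.293 CPM (SD, n = 4 each), n291556 (chr9:52878703-52882187) from 2.98 ± 1.06 to 0.522 ± 0.405, n277484 from 1.73 ± 0.570 to 0.330 ± 0.231, n268368 from 2.17 ± 0.543 to 0.583 ± 0.205, n284120 from 2.51 ± 0.308 to 0.714 ± 0.177 and n281943 from 1.32 ± 0.234 to 0.413 ± 0.381. Sham and TAC overlapped in none of the 6, by the rule that named them. Log2 fold changes were -2.57 ± 0.54, -2.51 ± 0.42, -2.40 ± 0.44, -1.90 ± 0.34, -1.84 ± 0.29 and -1.68 ± 0.51 in that order, with adjusted p from 0.000157 to 0.0154. The call of n286055 was lost without the libraries of unmatched sex (-1.96), and its value was -3.64 without TAC replicate 1. Without TAC replicate 3, n291556 and n281943 moved to -3.13 and -2.33. Without the libraries of unmatched sex, n291556, n277484 and n281943 moved to -3.29, -3.31 and -3.55. The call of n281943 was lost with a replicate block (-2.03). Of their coding neighbours, Rnpc3, a protein of the minor spliceosome next to n277484, and Rbm4, a splicing factor next to n281943, also fell, by 1.02 ± 0.36 and 0.40 ± 0.10, while Pcgf5, Ddx10, Dlc1 and Lphn2 did not pass the test.

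**Figure D5:**
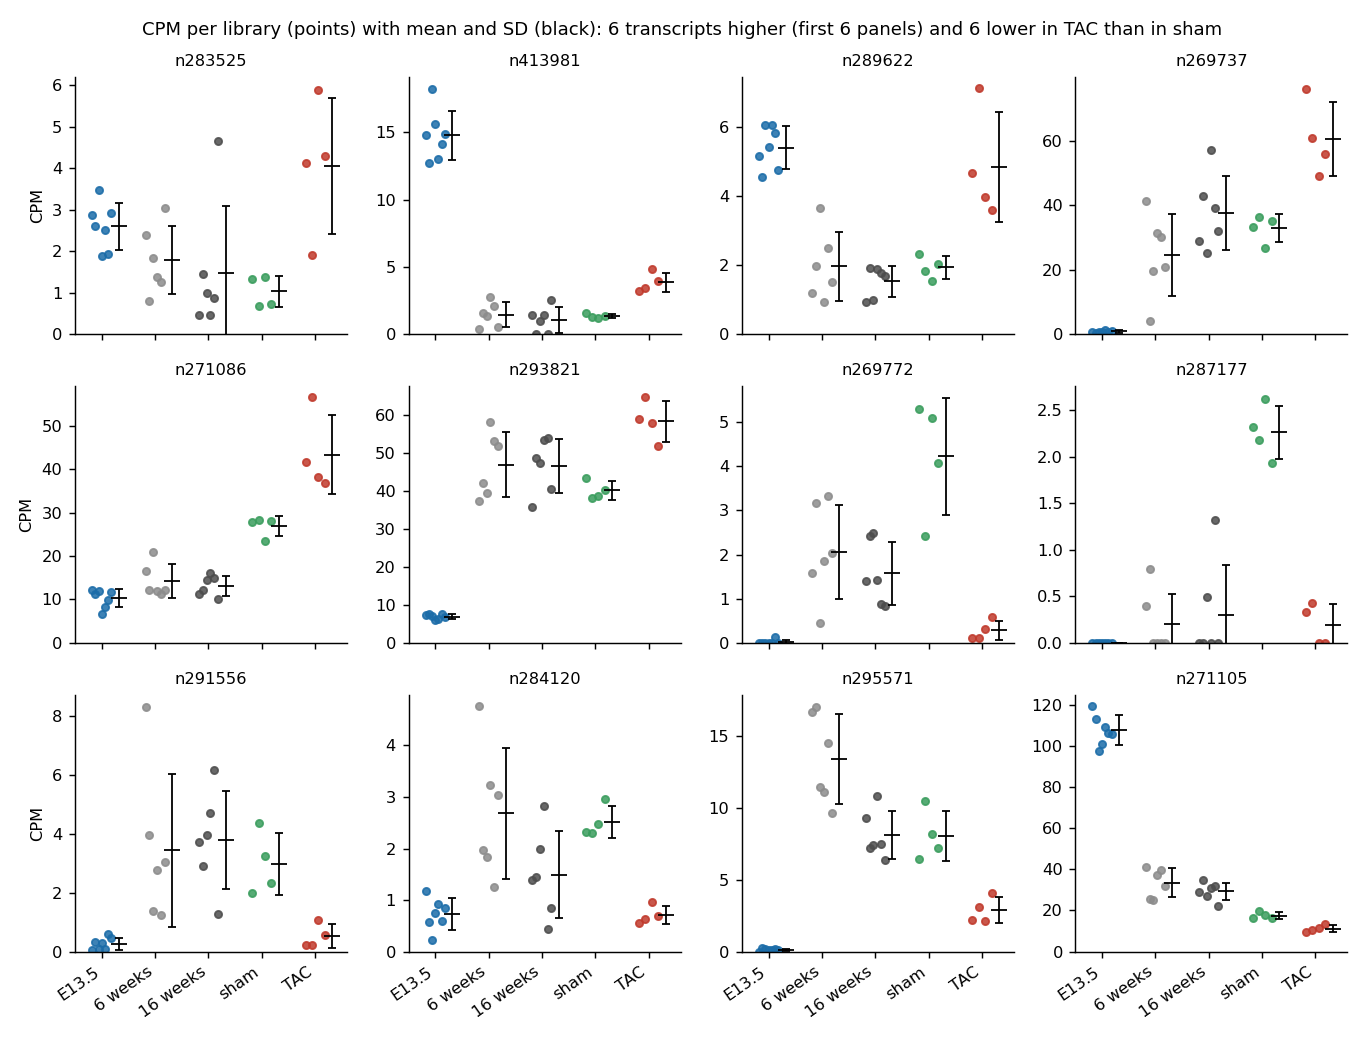
Each panel is 1 transcript, with CPM per library as points by group and mean and SD in black, on axes that start at 0; the first 6 panels are transcripts higher in TAC than in sham and the last 6 lower. TAC and sham points do not overlap in any panel. The naming rule required this of all panels but n293821, n295571 and n271105. n269772 and n295571 are near 0 at E13.5, and n413981 and n271105 are highest there.

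Along chromosome 14, 3 of 4 members downstream of Kcnrg on the opposite strand fell in TAC. Over all features tested 18.4% were lower in TAC, and over the tested members of the class 32.9%. n293703 (chr14:62280837-62283960), n269318 and n274818 gave -1.20 ± 0.28, -1.30 ± 0.29 and -1.11 ± 0.20 (adjusted p = 0.00382, 0.00213 and 0.000598), and n287649, the nearest to the gene at 5372 bases, -0.17 ± 0.32 (adjusted p = 0.704). n274818 had 6.08, 8.61, 7.86 and 9.08 CPM in sham and 4.90, 2.45, 3.86 and 3.94 in TAC. Sham and TAC did not overlap in the 3 that fell, and did in n287649. Kcnrg, a potassium channel regulator, gave -0.89 ± 0.37 (adjusted p = 0.0663).

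Near the axon guidance gene Nav2, n269132 and n287416 fell in TAC by 0.64 ± 0.19 and 0.63 ± 0.20 (adjusted p = 0.0169 and 0.0223), and n270887 and n281984 gave -0.38 ± 0.18 and 0.13 ± 0.30 without passing. The call of n287416 was lost in 5 other settings and 4 fits without a library, and that of n269132 in 2 and 2, with values from -0.51 to -0.65. Downstream of 2810055G20Rik, n287446 fell by 1.06 ± 0.31 (adjusted p = 0.0139; lost with a replicate block, -0.88, without the libraries of unmatched sex, -0.97, and without sham replicate 4, -0.91), and n289952 gave -0.25 ± 0.44; n290078, which overlaps n287446, was not tested in TAC and rose by 1.16 ± 0.35 at E13.5, which did not hold without the libraries of unmatched sex (0.79). Of 3 members past Smad7, n274345 gave 0.28 ± 0.14 in TAC and n273592 and n294482 rose by 1.24 ± 0.34 and 1.56 ± 0.28 at E13.5, with Smad7 at -0.10 ± 0.10.

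The transcripts that rose in TAC were few and moderate. n283525 (chr3:115403739-115406332, 7025 bases downstream of S1pr1, the sphingosine-1-phosphate receptor of endothelium) had 1.33, 0.689, 1.39 and 0.714 CPM in sham and 4.12, 1.92, 5.90 and 4.29 CPM in TAC. The lowest TAC heart was above the highest sham heart. Its log2 fold change was 1.96 ± 0.36 (adjusted p = 0.000595), while S1pr1 gave -0.02 ± 0.19 (adjusted p = 0.95). Embryos had 1.87 to 3.48 CPM, and 16 weeks replicate 6 reached 4.65 CPM. Over the 27 libraries its log2 CPM was most like that of n415158 (Pearson r = 0.58), n413827 (0.54) and n413830 (0.53).

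n295815 (chr6:70676884-70676954, plus strand) is a 71-base transcript that begins 133 bases after the annotated end of Igk-C, the constant segment of the immunoglobulin kappa light chain, on its strand. It had 0.663, 0.689, 1.08 and 0.510 CPM in sham and 2.23, 4.16, 1.18 and 1.74 CPM in TAC. The groups did not overlap. Its log2 fold change was 1.66 ± 0.41 (adjusted p = 0.00516), and 2.39 without the libraries of unmatched sex. At 6 weeks it ran from 0.83 to 2.78 CPM and at 16 weeks from 0.423 to 2.36 CPM, overlapping sham and TAC. The medians were 1.91 and 1.895 CPM, against 0.676 in sham and 1.98 in TAC. The 4 lymphocyte markers summed to 7.35 to 10.2 CPM in sham and 13.3 to 16.4 CPM in TAC. In the unoperated adults they summed to 3.32 to 6.46 CPM at 6 weeks and 2.11 to 11.4 CPM at 16 weeks. The part of these markers in the level of n295815 was not tested. Embryos held 4 counts of n295815 in all. In all, 13 members lie within 5 kb of an immunoglobulin segment, 3 of them nearest to a constant segment.

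n413981 (chr12:11889001-11889705) rose in both comparisons that use the sham hearts. It had 1.55, 1.26, 1.23 and 1.33 CPM in sham, 3.23, 3.41, 4.83 and 3.94 CPM in TAC, and 12.7 to 18.2 CPM at E13.5 with a median of 14.8. The 3 groups did not overlap, with TAC between sham and embryo. Log2 fold changes were 1.46 ± 0.24 in TAC (adjusted p = 0.000249) and 3.35 ± 0.17 at E13.5 (adjusted p = 3.35e-13). n289622 (chr5:34677772-34679831, 8529 bases upstream of Rnf4, a ubiquitin ligase) averaged 1.94 ± 0.329 CPM in sham, 4.85 ± 1.59 in TAC (SD, n = 4 each) and 5.41 ± 0.613 at E13.5 (n = 7). It rose by 1.26 ± 0.25 and 1.37 ± 0.18 (adjusted p = 0.00115 and 8.27e-07), and Rnf4 by 1.15 ± 0.07 at E13.5 but by 0.05 ± 0.09 in TAC, which did not pass (adjusted p = 0.708).

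n271086 (chr19:37855779-37859925, 79761 bases from Cyp26a1, the enzyme that degrades retinoic acid) had 27.9, 28.2, 23.4 and 28.2 CPM in sham and 41.6, 56.7, 38.3 and 36.9 CPM in TAC, with no overlap. It rose by 0.64 ± 0.13 (adjusted p = 0.00135) and was lower at E13.5 by -1.47 ± 0.13 (adjusted p = 3.52e-09). Unoperated adults had 14.2 ± 3.86 and 13.1 ± 2.35 CPM, below sham. n297559 and n284059 rose by 0.85 ± 0.18 and 0.60 ± 0.15 in TAC and were lower at E13.5 by -1.05 ± 0.19 and -0.96 ± 0.17, and Ppfia1 next to n284059 rose by 0.61 ± 0.14 in TAC. The call of n284059 was lost with a replicate block (0.51) and without the libraries of unmatched sex (0.38).

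n413827 rose by 0.84 ± 0.21 in TAC, from 3.53 ± 1.16 to 6.36 ± 0.360 CPM (SD, n = 4 each; adjusted p = 0.00571, lost with a replicate block, 0.69). n413830 rose by 0.85 ± 0.28 (adjusted p = 0.0242), a call lost in 5 other settings and in 4 fits without a library, with values from 0.75 to 0.91. It shares bases with Npm3-ps1, a pseudogene of a nucleolar chaperone, and 46.5% of its bases are its own. n415158, named for its likeness to n283525 over libraries that include sham and TAC, rose by 0.72 ± 0.20 (adjusted p = 0.00973). Its call was lost with a replicate block (0.70) and without the libraries of unmatched sex (0.55). For this transcript, TAC replicate 2 at 7.46 CPM lay below sham replicate 2 at 8.04 CPM.

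Between the unoperated ages only 63 of the 3401 transcripts could be tested in these shallow libraries, and few were called. By edgeR, 0 were higher and 4 (6.35%) lower at 16 than at 6 weeks. The background over 10394 features was 1.32% higher and 1.19% lower (2.51% in all). At an unadjusted p under 0.05, 1 was higher and 10 lower; DESeq2 and limma-voom each called 0 higher and 3 lower. n282476 inside Airn had 8.30 to 18 CPM at 6 weeks with a median of 9.99, and 2.11 to 7.06 CPM at 16 weeks with a median of 3.60. No 16-week heart reached a 6-week heart. Its log2 fold change was -1.52 ± 0.28 (adjusted p = 0.00517), and the other 4 Airn members tested here gave -0.16 to -0.68 without passing.

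The other falls were n281278 (-0.70 ± 0.14, adjusted p = 0.00779; also lost with all 27 libraries in the fit, -0.69), n295571 (-0.75 ± 0.20, adjusted p = 0.0434) and n269132 near Nav2 (-0.86 ± 0.23, adjusted p = 0.0495), whose ages overlapped. n295571 lost its call in 8 of the fits without a library (-0.67 to -0.80), with a replicate block (-0.73) and with all 27 libraries (-0.74). n269132 lost its call in 10 of the fits without a library (-0.75 to -0.91), under DESeq2 (-0.87) and limma-voom (-0.84), with no filter (-0.86) or a filter at 1 CPM (-0.85), and with a replicate block (-0.86). The count of lower calls was 2 without any one of 6 weeks replicates 1, 2 and 5 and 16 weeks replicates 2, 3 and 6. Without the libraries of unmatched sex, 1 call was left, that of n282476, and n281278, n295571 and n269132 gave -0.73, -0.71 and -1.08.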

How the data were processed

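Counts per feature were made by the authors: per the submitters' processing notes, the tools were TopHat 1.3.0, Bowtie, HTSeq, DESeq and edgeR, and the build was mm9. Per the labels' protocols, libraries were oligo(dT)-primed, single-end and without strand. The deposited table holds whole read counts for 57683 features in 27 libraries, and bases shared by several features gave no counts. The members and lists were chosen with earlier results of these data known.

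Members were found in the deposited annotation; 19 mitochondrial features without a count were left out. Each comparison was fitted over all features with edgeR 4.0.16 in R 4.3.3 (minimum count 10 by its filter, TMM factors, robust quasi-likelihood test, Benjamini-Hochberg adjustment, threshold 0.05), using only the groups compared. Checks used DESeq2 1.42.0 and limma-voom (limma 3.58.1), other scalings and filters, leaving out libraries, and stricter distances. The procedure was tested on simulated data. The SE beside a log2 fold change is its absolute value divided by the square root of the F statistic of the edgeR test. CPM used TMM factors over all 27 libraries. Nothing in the labels says more of replicates than that each is 1 heart.

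Named transcripts were the 10 called with the largest log2 fold change in each direction for E13.5 and for TAC against sham (5 in the other comparisons), without overlap between groups and with at least 1 CPM in the higher group; the 10 highest by CPM and 5 by CPM per kb; the 3 most like the leading TAC transcript in each direction (log2 of CPM plus 0.5); runs of 3 or more tested within 100 kb; and 3 named after their values were seen. A floor of 3 counts over a group stands for 0, and intervals and floors cover counting error only. The replicate numbers do not pair the libraries. A replicate block treats them as pairs and keeps only numbers present in every group compared. It leaves out E13.5 replicates 5 to 7 against sham and E13.5 replicate 7 against unoperated adults. In TAC against sham it leaves out sham replicate 4 and the female TAC heart. Marker lists were fixed with the design, and those not described in the report were endothelial (777 to 940 CPM at E13.5, 1429 to 1491 in sham, 1462 to 1745 in TAC), smooth muscle (1218 to 1525, 492 to 533, 399 to 662), epicardial (194 to 249, 5.41 to 8.38, 8.69 to 11.4), adipocyte (10.5 to 21.3, 528 to 724, 431 to 573) and nerve (4.61 to 9.70, 5.97 to 10.2, 3.36 to 4.61).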

Additional observations from a re-analysis of the deposited data

Results flagged for a closer look

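In 281 groups of named transcripts of 4 to 10 libraries, 19 held a library set apart from the rest of its group by a gap larger than the 95% critical value of Dixon's test allows; chance alone marks about 1 in 20 groups. Values are in CPM, and their causes were not tested.

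Among embryos, replicate 2 was the highest for n265358 (16300), n177784 or Malat1 (781) and n287649 (2.52), and replicate 3 for n275294 (9.02) and n269365 in Meg3 (15).

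At 6 weeks, replicate 4 was the highest for n282476 in Airn (18) and n297454 (46.1) and the lowest for n413827 (0.0), and replicate 1 was the highest for n290078 (3.57). At 16 weeks, replicate 5 was the highest for n281278 (57.8) and n290727 (31.8), replicate 6 for n283525 (4.65) and replicate 3 for n286055 (5.96).

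Among sham hearts, replicate 4 was the highest for n297559 (6.02), replicate 3 the lowest for n271086 (23.4) and n287416 (2.93), and replicate 2 the lowest for n419655 (0.804). Among TAC hearts, replicate 2 was the lowest for n265358 (9470) and replicate 3 for n419655 (1.5).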

How the results depend on the processing

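Counts of called transcripts kept within 1.5 times of those reported under the alternatives run, other than those given here and, by age, 6 fits without 1 library. With no filter on low counts, E13.5 against sham gave 245 higher and 207 lower, E13.5 against unoperated adults 282 and 121, and TAC against sham 23 and 91. With a filter at 1 CPM and with all 27 libraries in the fit, the unoperated comparison gave 80 and 55, and 102 and 82. Beyond 10 kb from coding genes, where fewer transcripts remain by construction, 71 and 43 were called against sham, 21 were higher against unoperated adults and 7 in TAC. Beyond 50 kb the numbers were 17 and 17, 3 and 12, and 4 and 15, and 1 was lower at 16 weeks. Among transcripts that overlap no other feature, 22 were higher against unoperated adults and 7 in TAC. At 16 against 6 weeks, 2 were lower with a replicate block and 1 without the libraries of unmatched sex. Apart from the distance and overlap settings, the cause was not tested.

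A replicate block also leaves out libraries whose number is not in every group compared. With it the counts were 90 and 56, 35 and 35, 10 and 36, and 0 and 2, in the order of the report. Same-numbered libraries had correlations of -0.06 to 0.13. Leaving out 1 library gave 104 to 120 higher and 61 to 69 lower against sham, 35 to 41 and 35 to 39 against unoperated adults, 12 to 17 and 45 to 57 in TAC, and 0 and 2 to 4 by age. Without TMM factors the summed level was 1780 CPM at E13.5, 1129 and 1012 at 6 and 16 weeks, 981.8 in sham and 841 in TAC. Transcripts with at least 5 counts at equal depth numbered 150.3, 109.6, 101.7, 99.33 and 79.29 in the same order. No named transcript that was called changed sign under an alternative; among those not called, some near 0 did. Shallow unoperated libraries and transcripts near 1 CPM limit what could be tested.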
